A study of Mus musculus with 3 samples.

Results

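Chemokines are small secreted proteins that steer white blood cells along gradients, and chemokine receptors are the G protein-coupled receptors on those cells that read them. Genes were taken by the symbol in the platform's annotation, as Ccl, Cxcl, Ccr or Cxcr followed by a number, together with Cx3cl1, Cx3cr1, Xcl1, Xcr1, Ppbp, Pf4, Ccrl2, Ackr1, Ackr2 and Ackr3. The rule found 58 of the 19938 genes measured, of which 36 encode ligands and 22 encode receptors. They were read in healing back skin of C57Bl/6 mice aged 6 weeks, an inbred strain, collected on day 10, day 12 or day 14 after a full-thickness excision of 1.5 cm2 that took epidermis and dermis together. The dermis and any epidermis above it were dissected so as to avoid follicles of the wound edge and unwounded skin. All 3 groups carried the same wound, and no unwounded skin was among the arrays used here. Tissue of 3 mice was pooled for each day and each pool was read on 1 array, so each gene has a single value for a day, with no replicate error and no test between days.

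In wounded skin, ligands of the CXC class that carry a Glu-Leu-Arg stretch act on Cxcr2 and draw neutrophils, while many CC ligands draw monocytes through receptors such as Ccr1 and Ccr2. Interferon-inducible CXC ligands act on Cxcr3 of activated T cells, and dendritic cells move to lymph nodes through Ccr7. Atypical receptors bind chemokines without classical G protein signalling and remove or transport them.

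Values are log2 expression as deposited, so a difference of 1 is 2-fold. A gene was compared in depth when its highest value over the 3 arrays reached 8.36, the median of that quantity over all genes, and 30 of the 58 genes did so. Just inside this level stood Ackr3 at 8.40, Ackr1 at 8.41 and Cx3cl1 at 8.41, and just below it Cxcr6 at 8.10, Ccr9 at 7.997 and Cxcr3 at 7.99. Of the 30, 7 reached the level on 1 or 2 days only, namely Ackr1, Ackr3, Ccl17, Ccl22, Ccr1, Cxcl3 and Cxcl5, and could pass by the day on which they were high. Equal values on all 3 days were held by 10 of the 58 genes, 1 of them above the level, against 25.7% of all genes and 13.4% of those above it. Such ties can arise when few arrays are summarised together and are no precise measurement of an equal level.

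The markers of the labelled tissue were present, since all 8 measured keratinocyte genes and all 8 fibroblast genes stood above the level on these arrays. On day 14 against day 10 the cornified envelope gene Lor differed by 0.96, Trp63 by 0.42, Krt10 by 0.26 and Krt1 by 0.15, while the matrix genes Fbln1, Lum and Postn and the receptor gene Pdgfra differed by −0.51, −0.17, −0.07 and −0.29. Of the 8 keratinocyte genes, 6 were higher and 2 lower in that pair, the lower being Krt6a at −0.11 and Krt17 at −0.02. Of the 8 fibroblast genes, 2 were higher, 5 lower and 1 equal. The lymphatic genes Flt4, Lyve1, Mmrn1 and Pdpn lay between −0.31 and −0.00250, and the muscle actin gene Acta1 differed by −0.50. Over all 35556 probe sets the arrays had medians of 7.53, 7.55 and 7.53 in the order of the days. The Y-linked gene Eif2s3y stood at 5.49, 9.59 and 8.38 on days 10, 12 and 14, so the pools differed in a transcript of male cells. Its part in the results below was not tested. In whole tissue, fewer cells of a type and less RNA per cell cannot be told apart.

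Day 12 was set against day 10 to ask which chemokine genes differed between the first pair of days. Of the 30 genes above the level, 7 were at least 2-fold higher on day 12, against 1.48% of the 9969 genes above it. They were the neutrophil ligands Cxcl2, Cxcl3 and Ppbp, the monocyte ligands Ccl3 and Ccl6, and the T cell ligands Cxcl9 and Ccl17. The neutrophil ligand Cxcl5 was the 1 gene at least 2-fold lower, against 0.181% of genes. No receptor reached 2-fold in this pair. The median difference was 0.26 over the 30 genes, against 0.00 over the 9969 genes. Over all 58 it was 0.09, against 0.00 over all 19938 genes. No chemokine or receptor gene below the level reached 2-fold in any pair of days. Over all 19938 genes, the share at 2-fold in a direction was also small, from 0.0552% to 1.25% over the pairs.

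Day 14 was set against day 12 to ask the same of the second pair of days. None of the 30 was at least 2-fold higher on day 14, against 0.0301% of genes, and 6 were at least 2-fold lower, against 0.361%. These were the ligands Cxcl2, Cxcl3, Cxcl5, Ppbp and Ccl3 and the receptor Ccr1. The median difference was −0.40 over the 30 genes, against −0.00122 over the 9969 genes. Over all 58 it was 0.00, against 0.00 over all 19938 genes. On day 14 against day 10, Cxcl9 was the 1 gene at least 2-fold higher, against 2.24% of genes, and Cxcl5, Ppbp and Ccr1 were at least 2-fold lower, against 0.913%. The median difference was −0.08 over the 30 genes, against −0.02 over the 9969 genes. Over all 58 it was 0.00242, against 0.00 over all 19938 genes. The last pair of days does not use the day 12 array. The comparisons share arrays pairwise, and none has a replicate check.

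**Figure D1:**
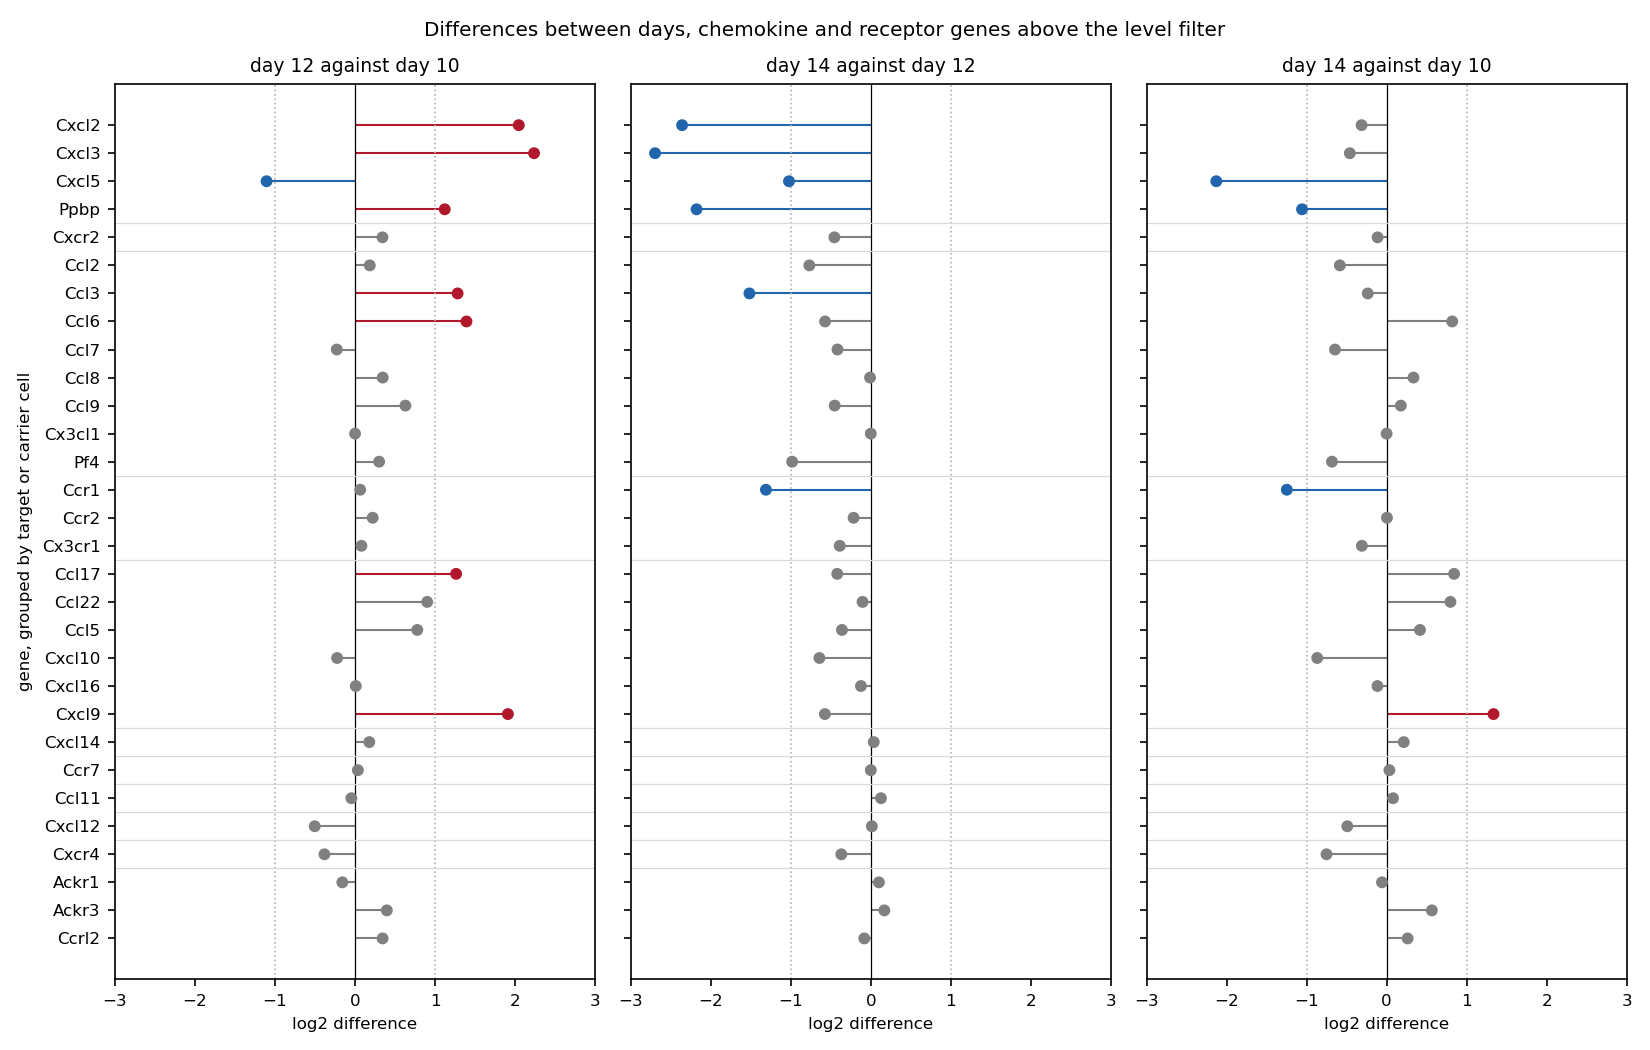
Log2 differences between days for the 30 chemokine and receptor genes above the level, grouped by target or carrier cell, with dotted lines at 2-fold. Red points are at least 2-fold higher and blue points at least 2-fold lower on the later day, and Cxcl3 has the largest difference in both shorter intervals, 2.24 and −2.70.

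The neutrophil ligands Cxcl2 and Cxcl3 were high on day 12 and lower on both sides of it. Over all 6 ligands of this group the median of day 12 minus day 10 was 0.56, with 3 higher and 1 lower, and that of day 14 minus day 12 was −1.60, with 0 higher and 4 lower. Cxcl2, which encodes a ligand of Cxcr2 made by activated macrophages and keratinocytes, stood at 8.92 on day 10, 10.97 on day 12 and 8.61 on day 14. It was 4.13-fold higher on day 12 than on day 10 and by day 14 was 5.13-fold lower than on day 12. Cxcl3, a close relative with the same receptor, stood at 7.71, 9.95 and 7.25 on days 10, 12 and 14. It was 4.71-fold higher on day 12 than on day 10 and by day 14 was 6.48-fold lower than on day 12. For both genes day 14 lay near day 10, with differences of −0.31 for Cxcl2 and −0.46 for Cxcl3.

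Ppbp, a chemokine gene of megakaryocytes and platelets whose cleaved product acts on Cxcr2, stood at 10.21, 11.34 and 9.16 on days 10, 12 and 14. It was 2.17-fold higher on day 12 than on day 10 and by day 14 was 4.52-fold lower than on day 12. On day 14 it was also 2.08-fold lower than on day 10. The 4 measured platelet and megakaryocyte markers had mean levels of 8.18, 8.13 and 8.24 on the 3 days, and none differed by 2-fold in any pair. Of them Itgb3, a subunit of the platelet fibrinogen receptor that other cells also make, was the 1 above the level, at 10.35, 10.11 and 9.98.

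Cxcl5 took another course. This gene, which encodes the epithelial neutrophil attractant called LIX in mice, stood at 8.92 on day 10, 7.81 on day 12 and 6.79 on day 14. Each day was lower than the one before, with log2 differences of −1.11 and then −1.02, and day 14 was 4.37-fold lower than day 10. With arrays centred on their medians, the second step was −0.998 and no longer reached 2-fold. Cxcl1 and Cxcl15 stood below the level with equal values on all 3 days, at 7.57 and 5.18. Cxcl1 encodes a further Cxcr2 ligand, and Cxcl15 one known from mouse lung.

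The promoters of Cxcl1, Cxcl2 and Cxcl3 are shown because these neighbouring paralogues share a receptor, with Cxcl1, whose values were tied, added after the values were seen. They run from 250 bases before to 50 after the gene start in RefSeq's GRCm38.p6, on the plus strand at chr5:90890995-90891294, chr5:90903649-90903948 and chr5:90785851-90786150. Capitals mark matches on either strand to the NF-kappaB pattern GGGNNNNNCC, where N is any base, with overlapping matches joined.
Cxcl1: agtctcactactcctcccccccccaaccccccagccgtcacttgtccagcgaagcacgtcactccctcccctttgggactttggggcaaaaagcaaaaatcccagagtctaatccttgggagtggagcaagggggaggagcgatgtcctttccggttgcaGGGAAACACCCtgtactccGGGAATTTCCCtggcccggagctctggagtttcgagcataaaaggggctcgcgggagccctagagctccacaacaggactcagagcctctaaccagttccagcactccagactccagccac
Cxcl2: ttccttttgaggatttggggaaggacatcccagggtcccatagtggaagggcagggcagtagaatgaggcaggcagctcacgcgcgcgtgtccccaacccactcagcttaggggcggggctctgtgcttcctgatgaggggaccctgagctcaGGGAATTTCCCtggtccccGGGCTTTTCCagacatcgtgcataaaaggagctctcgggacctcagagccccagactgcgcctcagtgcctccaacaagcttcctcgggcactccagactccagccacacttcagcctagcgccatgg
Cxcl3: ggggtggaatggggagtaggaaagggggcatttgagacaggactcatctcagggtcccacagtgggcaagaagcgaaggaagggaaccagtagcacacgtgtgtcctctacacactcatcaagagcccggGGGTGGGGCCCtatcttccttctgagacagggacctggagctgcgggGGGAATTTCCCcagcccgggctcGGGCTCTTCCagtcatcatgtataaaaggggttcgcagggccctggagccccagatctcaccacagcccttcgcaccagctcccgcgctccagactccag

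The 11 letters GGGAATTTCCC occur in all 3 promoters, starting 71 bases before the start in Cxcl1, 97 in Cxcl2 and 73 in Cxcl3. They were picked out after the sequences were read, and 14 of the 32851 promoters in the table hold them (0.0426%). The wider pattern was common, in 53.5% of 27025 genes with a promoter and in 25 of the 44 chemokine and receptor genes matched by symbol (56.8%). Of the 9 genes that reached 2-fold in some pair of days, 8 had a promoter in the table and 4 of these held the pattern, namely Cxcl2, Cxcl3, Cxcl9 and Ccr1. Ppbp, Ccl3, Ccl6 and Ccl17 did not have these letters in the window searched. A match describes letters and not a site in use.

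Neither receptor of these ligands reached 2-fold. Cxcr2, the main neutrophil receptor of the group, stood at 9.51, 9.85 and 9.39 on days 10, 12 and 14, a difference of 0.34 on day 12 against day 10 and of −0.46 on day 14 against day 12. Cxcr1 stood below the level at 6.82, 6.91 and 7.18. Of 11 measured neutrophil markers, 6 were above the level and the list had mean levels of 8.36, 8.46 and 8.03 on the 3 days. On day 12 against day 10, 5 were higher, 2 lower and 4 equal. In the next pair, day 14 against day 12, 2 were higher, 5 lower and 4 equal. The median difference of the list was 0.00 in both pairs. The collagenase gene Mmp8 and the myeloid receptor gene Trem1 differed by −2.42 and −2.14 on day 14 against day 12. S100a9, a calcium-binding protein abundant in neutrophils, and Csf3r, the receptor of granulocyte colony-stimulating factor, differed by −0.04 and −0.16 in the same pair. S100a8 was 0.16 higher in that pair, and on day 12 against day 10 S100a8 and S100a9 differed by −0.26 and −0.30. The part of neutrophil number in the ligand values was not tested.

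Among monocyte and macrophage ligands, 8 of 10 were above the level. Over all 10, 8 were higher on day 12 than on day 10 (median 0.32), while on day 14 9 were below their day 12 value (median −0.49). Ccl3, which encodes a ligand of Ccr1, stood at 10.68, 11.96 and 10.44 on days 10, 12 and 14. It was 2.43-fold higher on day 12 than on day 10 and by day 14 was 2.86-fold lower than on day 12, so its outer days lay close together as those of Cxcl2 did. Ccl4, a close relative of Ccl3 that also draws monocytes, stood below the level at 6.59, 7.20 and 6.66, also highest on day 12. Ccl6, a macrophage-attracting chemokine of mice acting through Ccr1, stood at 10.03, 11.42 and 10.85. It was 2.62-fold higher on day 12 than on day 10 and on day 14 stood 0.82 above day 10. Ccl9, a related Ccr1 ligand, stood at 10.504, 11.13 and 10.68 and reached 2-fold in no pair.

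The main ligands of Ccr2, the receptor that brings inflammatory monocytes out of blood, were lowest on day 14. Ccl2 stood at 10.22, 10.41 and 9.64 on days 10, 12 and 14, with a difference of −0.77 on day 14 against day 12. Ccl7 stood at 10.76, 10.53 and 10.12, with a difference of −0.64 on day 14 against day 10. Ccl12 was below the level at 6.68, 6.74 and 6.46. Neither Ccl2 nor Ccl7 reached 2-fold in any pair. Ccl8, which in mice acts mainly through Ccr8, was instead higher on both later days, at 9.76, 10.10 and 10.09. Pf4, a platelet chemokine gene that macrophages also make, stood at 11.96, 12.26 and 11.28, and its 1.98-fold lower value on day 14 than on day 12 was just short of 2-fold. Cx3cl1, the membrane-bound ligand of Cx3cr1, held 8.41 on all 3 days.

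Ccr1 was the 1 receptor that reached 2-fold. This receptor of Ccl3, Ccl6 and Ccl9 stood at 8.66 on day 10, 8.72 on day 12 and 7.41 on day 14. It was thus nearly level over the first pair of days, with a difference of 0.06, and was 2.48-fold lower on day 14 than on day 12. Ccr2 stood at 9.77, 9.99 and 9.78, and Cx3cr1, a receptor of patrolling monocytes and tissue macrophages, at 9.10, 9.18 and 8.80. Ccr1l1, an uncharacterised relative of Ccr1, held 5.69 on all days.

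The markers of monocytes and macrophages had mean levels of 10.51, 10.84 and 10.41 over 12 measured genes on days 10, 12 and 14. Of these 12, 11 were higher and none lower on day 12 than on day 10, and 10 were lower on day 14 than on day 12. Cd14, a receptor for bacterial lipopolysaccharide, differed by −1.37 on day 14 against day 12, and Arg1, the arginase gene of wound macrophages, by −1.26. The scavenger receptor gene Msr1 differed by −0.84 in that pair. The lysozyme gene Lyz1 ran the other way, at 9.18, 9.68 and 10.01 on the 3 days, and was 0.83 higher on day 14 than on day 10. The part of macrophage number in the values of Ccl3, Ccl6 and Ccr1 was not tested.

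**Figure D2:**
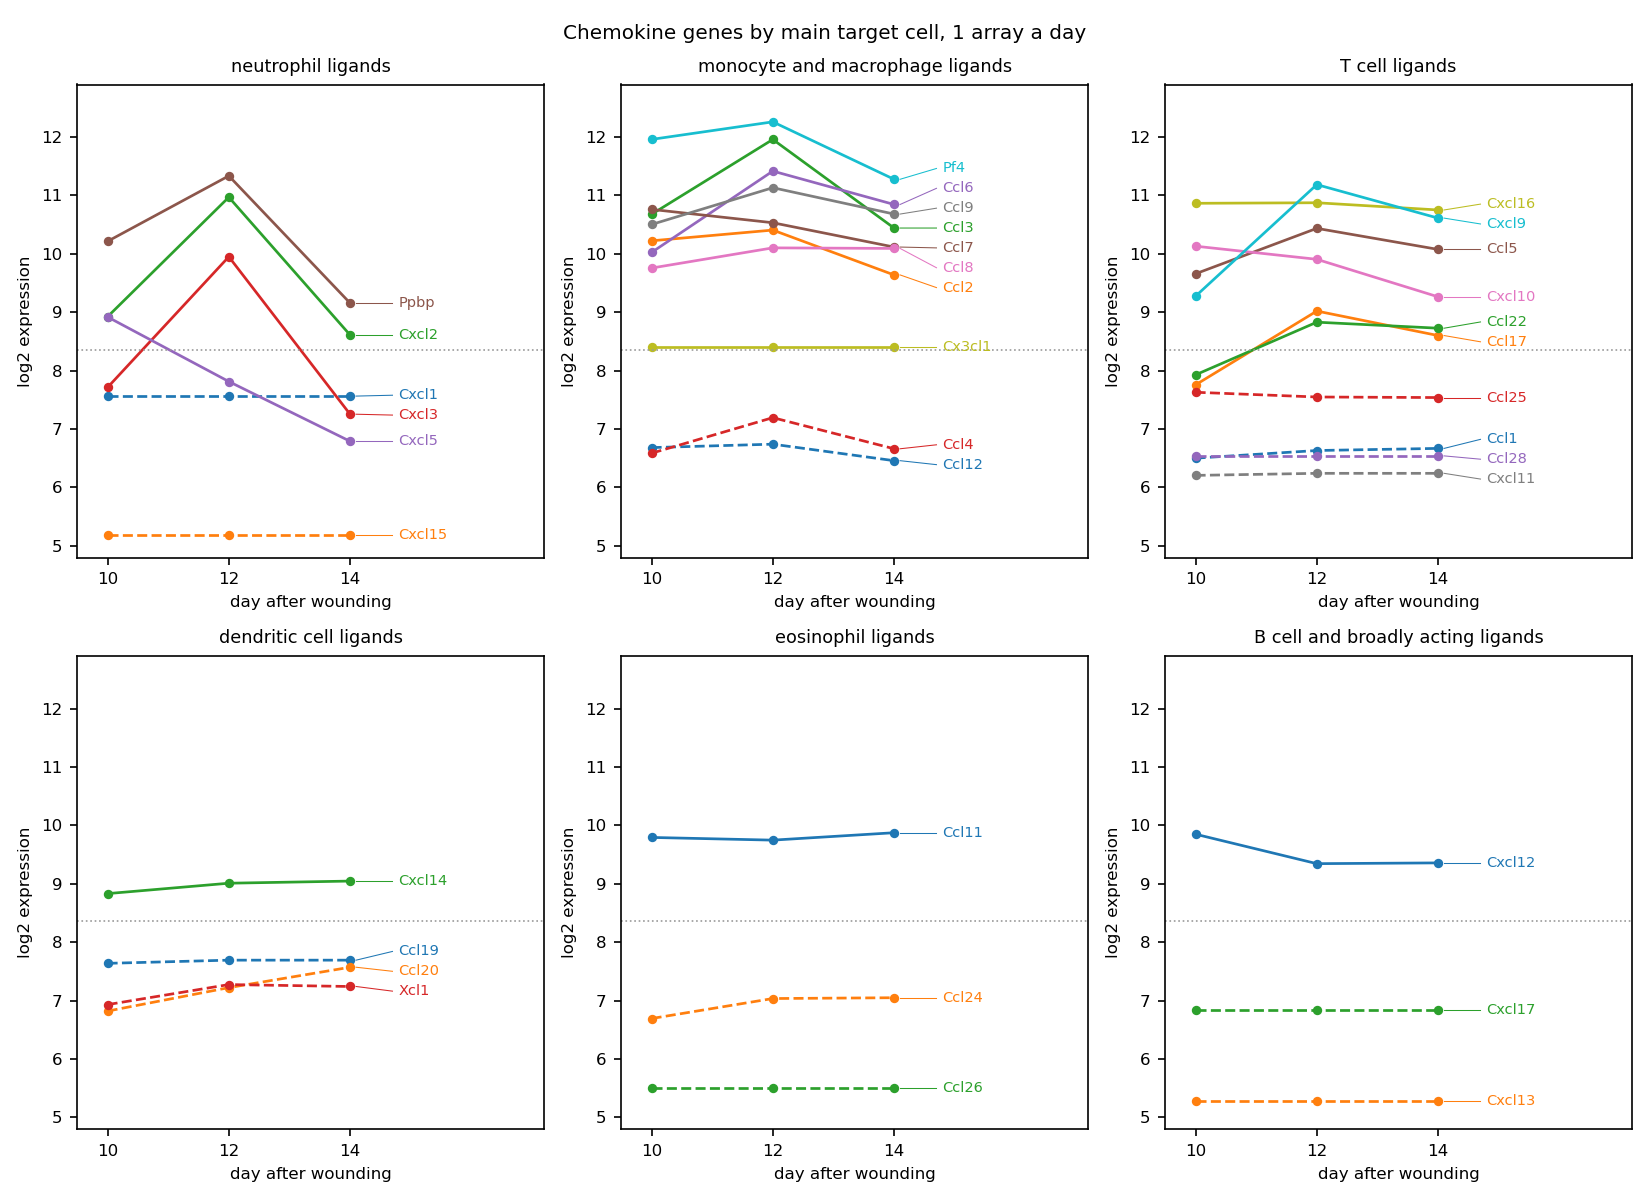
Log2 expression of 36 chemokine ligand genes on days 10, 12 and 14 after wounding, 1 line per gene and 1 array per day, in panels by main target cell. Dashed lines are genes that never reached the dotted level of 8.36. Cxcl2, Cxcl3, Ppbp and Ccl3 peak on day 12 with at least 2-fold on both sides, while Cxcl5 is lower on each later day.

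Of 10 measured T cell ligands, 6 were above the level, while Ccl27a and Ccl27b had no probe set with a single symbol. Over all 10 the median of day 12 minus day 10 was 0.08, and that of day 14 minus day 12 was −0.11, with none at 2-fold in the second pair. Cxcl9, which encodes an interferon-gamma-inducible ligand of Cxcr3, stood at 9.28, 11.19 and 10.61 on days 10, 12 and 14. It was 3.76-fold higher on day 12 than on day 10, and on day 14 it was still 2.52-fold above day 10. Cxcl10, a ligand of the same receptor, stood at 10.13, 9.91 and 9.26, lower on each later day, and its day 14 value was 1.82-fold below that of day 10. Cxcl11, the further Cxcr3 ligand, was below the level at 6.21, 6.24 and 6.24, and the C57Bl/6 background is known to carry a Cxcl11 allele that makes no full-length protein. These ligands of Cxcr3 thus gave values of opposite direction on day 12 against day 10, at 1.91 for Cxcl9 and −0.22 for Cxcl10. The Cxcl10 difference was small in that pair. Day 14 against day 10 also gave opposite directions, at 1.34 for Cxcl9 and −0.87 for Cxcl10. On day 14 against day 12 both were lower, with differences of −0.57 and −0.64.

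The promoters of Cxcl9 and Cxcl10 are shown because these neighbours share a receptor and differed in direction, with Cxcl10 added after the values were seen. Both lie on the minus strand in GRCm38.p6, at chr5:92328030-92328329 and chr5:92348840-92349139, and are written in the direction of transcription. Capitals mark the NF-kappaB pattern in both, and in Cxcl10 the first run of capitals marks the interferon response pattern GAAANNGAAA.
Cxcl9: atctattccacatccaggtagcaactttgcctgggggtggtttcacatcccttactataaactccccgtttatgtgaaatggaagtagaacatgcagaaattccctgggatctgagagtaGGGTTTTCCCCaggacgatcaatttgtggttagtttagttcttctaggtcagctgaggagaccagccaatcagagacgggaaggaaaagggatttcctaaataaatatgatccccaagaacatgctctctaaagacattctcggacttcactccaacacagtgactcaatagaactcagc
Cxcl10: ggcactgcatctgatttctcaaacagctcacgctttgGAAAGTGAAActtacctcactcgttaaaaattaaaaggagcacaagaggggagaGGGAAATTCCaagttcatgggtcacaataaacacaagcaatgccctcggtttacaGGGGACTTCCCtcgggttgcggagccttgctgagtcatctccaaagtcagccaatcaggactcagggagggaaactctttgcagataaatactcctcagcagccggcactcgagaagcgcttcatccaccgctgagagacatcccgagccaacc

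The interferon response pattern lay in Cxcl10 from 213 to 204 bases before the start and was not among the letters of this window in Cxcl9. It occurred in 3 of the 44 chemokine and receptor genes (6.82%), namely Cxcl10, Cxcl14 and Ccl19, against 3.99% of 27025 genes. None of the 8 genes at 2-fold with a promoter in the table held it, and Cxcl5, the ninth such gene, had no entry and was not searched.

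Ccl17 and Ccl22, which encode ligands of Ccr4 made largely by dendritic cells and macrophages, differed alike. Ccl17 stood at 7.76, 9.02 and 8.60 on days 10, 12 and 14 and was 2.40-fold higher on day 12 than on day 10. Ccl22 stood at 7.93, 8.83 and 8.73 and was 1.87-fold higher on day 12 than on day 10. Both were below the level on day 10 and above it on the later days. Ccl5, a ligand made by T cells and many other cells, stood at 9.66, 10.44 and 10.08 and was 0.78 higher on day 12 than on day 10. Cxcl16, a membrane-bound ligand of Cxcr6, stayed within 10.75 to 10.88. The remaining T cell ligands were below the level, with Ccl1 between 6.502 and 6.67, Ccl25 between 7.54 and 7.63, and Ccl28 at 6.54 on all days.

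None of the 6 measured T cell receptors of chemokines reached the level. Cxcr3, the receptor of Cxcl9 and Cxcl10 on activated T cells, stood at 7.72, 7.99 and 7.99 on days 10, 12 and 14. Ccr4, the receptor of Ccl17 and Ccl22, stood at 6.76, 6.89 and 7.17. Cxcr6 stayed at 8.10 on each day. Ccr9, a receptor of gut-homing T cells, stood at 7.53, 7.87 and 7.997. The skin-homing receptor Ccr10 lay between 6.90 and 6.98, and Ccr8, carried by skin-resident and regulatory T cells, between 5.90 and 6.05. The differences within this group on day 14 against day 10 ran from 0.00 for Cxcr6 to 0.47 for Ccr9.

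Of 12 measured T cell markers, 6 were above the level, and the list had mean levels of 7.75, 7.96 and 7.98 on the 3 days. Cd3e, part of the T cell receptor complex, stood at 8.64, 8.64 and 8.65. Gata3, which keratinocytes also make, was 1.32 higher on day 12 than on day 10, whereas Cd5 was 0.27 and Icos 0.12 higher. The part of T cell number in the ligand values was not tested.

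The 4 measured ligands that act on dendritic cells were mostly below the level. Ccl21a, Ccl21b and Ccl21c had no probe set with a single symbol, and probe sets with several symbols are not counted here. Cxcl14, a chemokine of epithelia that attracts dendritic cell precursors and monocytes, was the 1 of 4 above the level, at 8.83, 9.01 and 9.05 on days 10, 12 and 14. Ccl20, the ligand of Ccr6 that keratinocytes make in inflammation, stood below the level at 6.82, 7.22 and 7.57, and was 1.68-fold higher on day 14 than on day 10. Ccl19, a ligand of Ccr7, stood at 7.64, 7.69 and 7.69 over 5 probe sets. Xcl1, the ligand of Xcr1, stood at 6.93, 7.27 and 7.24.

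Ccr7, the receptor that leads mature dendritic cells and T cells to lymph nodes, held 8.96, 8.999 and 8.999 on days 10, 12 and 14. Xcr1, a receptor of cross-presenting dendritic cells, was below the level at 6.82, 7.28 and 7.40, and Ccr6 at 6.30, 6.39 and 6.39. The dendritic and Langerhans cell markers had mean levels of 8.76, 9.26 and 9.40 over 14 measured genes, 9 of them above the level. Each of the 14 was higher on day 14 than on day 10. Epcam and Itgax, which encodes CD11c, were higher on day 14 than on day 10 by 1.56 and 1.37, and Mgl2 and Cd209d by 1.45 and 1.17. The median over the 14 genes was 0.40 in that pair, and their expression in other cells of the tissue was not tested. Of the markers below the level, Cd207 and Clec9a were higher by 0.67 and 0.33 in that pair. Zbtb46, Flt3 and Batf3, also below it, were higher by 0.19, 0.05 and 0.03. Ccl17, Ccl22, Ccl20 and Xcr1 were likewise higher on both later days than on day 10, and the part of dendritic cell number in them was not tested.

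**Figure D3:**
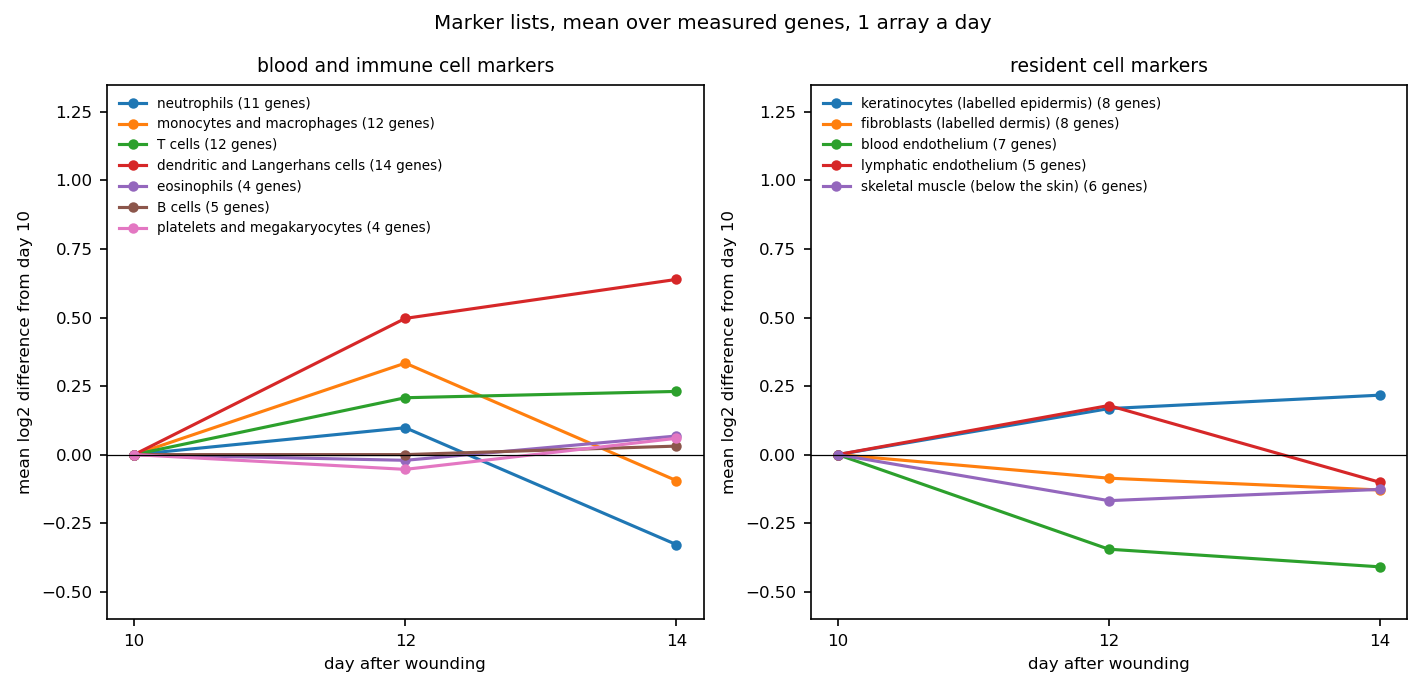
Mean log2 difference from day 10 of the marker lists on days 10, 12 and 14, over all measured genes of each list, with 1 array per day. The dendritic and Langerhans list stands 0.64 above day 10 on day 14, while the monocyte and macrophage list is 0.33 above day 10 on day 12 and differs from it by −0.09 on day 14.

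No gene of the remaining target cells reached 2-fold, and over all genes above the level the share in a direction was at most 2.24% in any pair. Ccl11, the eosinophil attractant eotaxin, stood at 9.79, 9.75 and 9.87 on days 10, 12 and 14, while Ccl24 was below the level at 6.69, 7.04 and 7.05, and Ccl26 at 5.51 on each day. Their receptor Ccr3 held 6.54, and none of the 4 measured eosinophil markers reached the level. Cxcl13 and its B cell receptor Cxcr5 held 5.28 and 5.57 on every day, the epithelial ligand Cxcl17 held 6.83, and none of 5 B cell markers reached the level.

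Cxcl12, which encodes a ligand of stromal and vascular cells that retains and draws many cell types, and its receptor Cxcr4 were both highest on day 10. Cxcl12 stood at 9.85, 9.34 and 9.36 on days 10, 12 and 14. Cxcr4 stood at 10.52, 10.14 and 9.77 and was 1.68-fold lower on day 14 than on day 10. Ackr3, the atypical receptor that takes up Cxcl12, ran the other way at 7.83, 8.23 and 8.40. The blood endothelium markers, all 7 of them above the level, had mean levels of 10.76, 10.42 and 10.35. On day 14 against day 10 the fenestral diaphragm gene Plvap differed by −0.91, Emcn by −0.59, and the receptor genes Kdr and Tek by −0.53 and −0.46. Of the 7 markers, 6 were lower and 1 higher in that pair, the higher being Vwf at 0.18. The part of vessel content in these values was not tested.

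The other atypical receptors stayed within a narrow range. Ackr1, the scavenger of venules and red cells, stood at 8.41, 8.25 and 8.35 on days 10, 12 and 14. Ackr2, which degrades inflammatory CC chemokines, stood at 7.22, 7.22 and 7.29. Ccrl2, which binds the non-chemokine attractant chemerin, stood at 8.36, 8.71 and 8.62, highest on day 12.

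**Figure D4:**
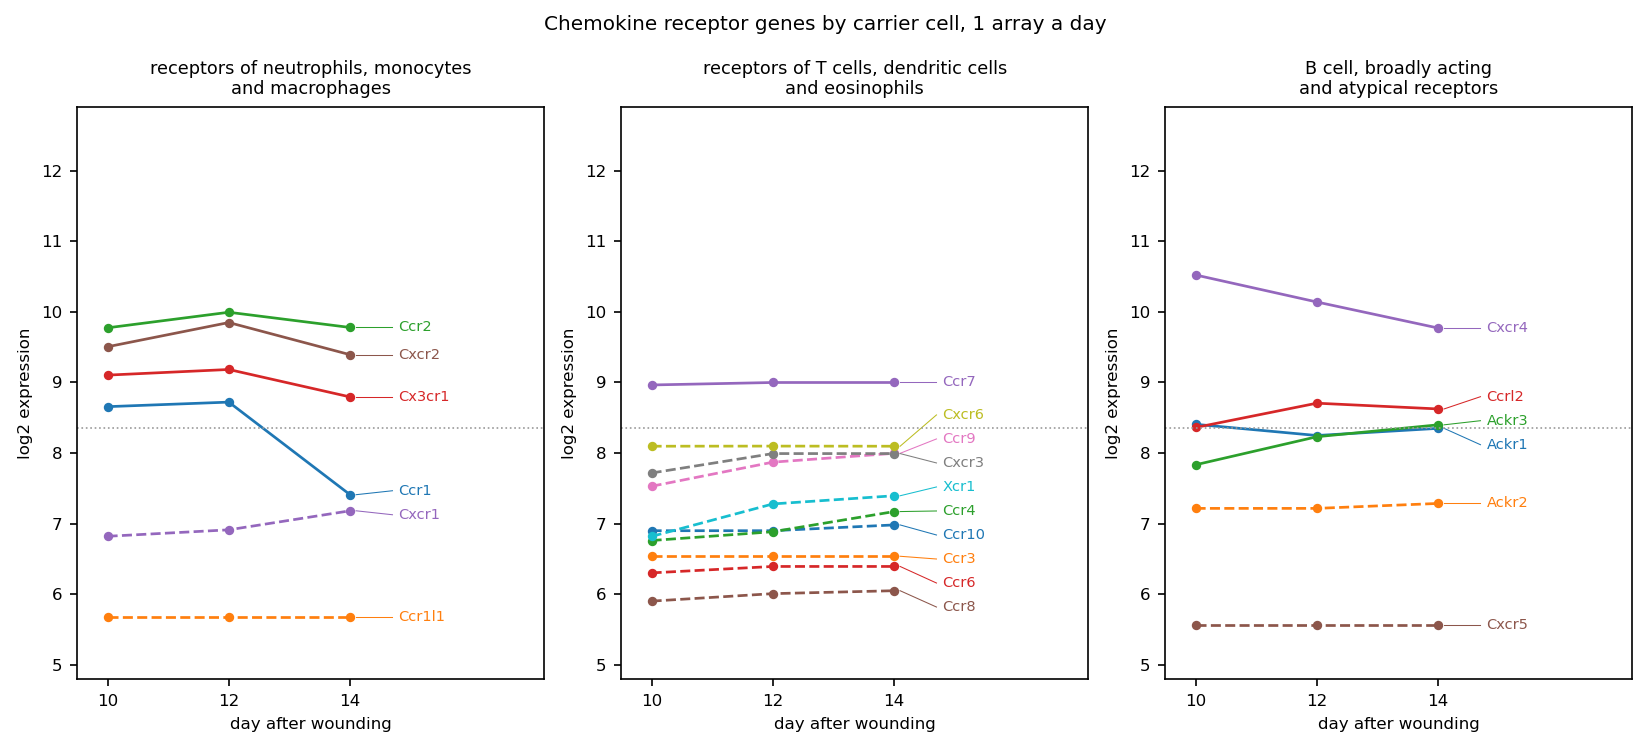
Log2 expression of 22 chemokine receptor genes on days 10, 12 and 14 after wounding, 1 line per gene and 1 array per day, in panels by carrier cell. Dashed lines are genes that never reached the dotted level of 8.36. Ccr1 is nearly level between day 10 and day 12 and stands at 7.41 on day 14, while Cxcr4 is lower on each later day, at 10.52, 10.14 and 9.77.

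A peak on day 12 was described after the values were seen. Of the 9969 genes above the level, 11 exceeded both other days by 2-fold or more on day 12 (0.110%), and 4 of these were the chemokine genes Cxcl2, Cxcl3, Ppbp and Ccl3. Of the 30 chemokine and receptor genes above the level, 19 had their highest value on day 12 by any margin, against 14.5% of genes.

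Many of these genes lie in runs on the chromosomes, taken here as neighbours with at most 2 other protein-coding genes between them in RefSeq's GRCm38.p6. On chromosome 5 the run reads Cxcl5, Ppbp, Pf4, Cxcl3, Cxcl15, Cxcl1 and Cxcl2, and its differences on day 12 against day 10 ran from −1.11 for Cxcl5 to 2.24 for Cxcl3, with Cxcl15 and Cxcl1 tied over the days. Cxcl5 and its neighbour Ppbp thus gave opposite directions. On chromosome 11 the run of Ccl5, Ccl9, Ccl6, Ccl3 and Ccl4 was more uniform, with all 5 higher on day 12 than on day 10, by 0.61 to 1.39, and lower on day 14 than on day 12, with differences between −0.36 and −1.52. A further run on chromosome 11, of Ccl2, Ccl7, Ccl11, Ccl12, Ccl8 and Ccl1, lay between −0.23 and 0.35 on day 12 against day 10. On chromosome 8, Ccl22 and Ccl17 flank Cx3cl1, and both were higher on day 12 than on day 10, while Cx3cl1 has tied values that cannot be read as an equal level. On chromosome 9, Ccr1 differed by −1.31 on day 14 against day 12, and the other 6 receptors of its run differed by −0.22 to 0.13.

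Of the genes around the chemokines in the same pathway, Il1a, Il1b, Dpp4, Mmp8 and Mmp9 reached 2-fold in some pair of days. Of 33 genes listed for signalling behind chemokine receptors, 30 were measured, all above the level, and none reached 2-fold in any pair. Over the 9969 genes above the level, the share at 2-fold in a direction ran from 0.0301% to 2.24% over the pairs. On day 12 against day 10, 20 were higher and 7 lower, and on day 14 against day 12, 3 were higher and 22 lower. Over the 9969 genes above the level, 3309 were higher and 4560 lower in the first pair, and 2478 higher and 5017 lower in the second. Dock2 and Dock8, guanine nucleotide exchange factors that drive leukocyte migration, were 0.61 and 0.47 higher on day 12 than on day 10. Rgs1 and Itgb2 of the same list were 0.71 and 0.61 higher, and Rgs1 had the largest difference of the list in that pair. Rgs18, a regulator of G protein signalling in platelets and myeloid cells, was 0.45 higher, and the G protein subunit gene Gng2 differed by −0.28 in the same pair.

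Of 32 inducers of chemokine genes, 29 were measured and 20 stood above the level. Il1a, an alarm cytokine of keratinocytes, stood at 9.40, 10.54 and 10.46 on days 10, 12 and 14 and was 2.21-fold higher on day 12 than on day 10. Il1b, its relative made by myeloid cells, stood at 10.44, 11.08 and 9.52 and was 2.95-fold lower on day 14 than on day 12. No other gene of the list reached 2-fold in those pairs. Il33, a further alarm cytokine, and the interleukin 4 receptor gene Il4ra differed by −0.68 and −0.52 on day 14 against day 10.

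Of 13 enzymes that cleave, shed or modify chemokines and their receptors, Dpp4, whose product trims the ends of Cxcl9, Cxcl10 and Cxcl12, stood at 8.72, 9.68 and 9.89 on days 10, 12 and 14. It was 2.25-fold higher on day 14 than on day 10. Mmp9 stood at 12.07, 11.69 and 10.97 and was 2.15-fold lower on day 14 than on day 10, and Mmp8 was 3.06-fold lower in the same pair. Mmp12, the macrophage elastase that cleaves several chemokines, stood at 11.74, 12.58 and 12.54. Mmp12 and the other 9 enzymes of the list did not reach 2-fold in any pair.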

How the data were processed

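Per the labels' protocols, total RNA (250 ng) was amplified, converted to cDNA, fragmented and labelled with biotin, with 3 mice pooled per day. The deposited values are log2 expression per probe set made by the authors, and the submitters' processing notes name RMA and Partek 6.6 without their roles. The log2 scale was taken from the range, 4.37 to 14.1. No scanner output was used, so background per probe set is unknown, and the number of arrays limits the precision.

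Symbols came from the platform's annotation. The 21789 probe sets with 1 symbol were averaged per gene, and 58 of 58 chemokine and receptor genes matched RefSeq by Entrez identifier. Of the 1621 probe sets with several symbols, 7 carried a chemokine symbol and were left unnamed. Differences are later minus earlier day, called at 2-fold, with no test since each day had 1 array. For 627 genes, differences were averaged over a pair of probe sets, and the size of 1 probe set's deviation from this average was taken. Its 95th percentiles were 0.17 (day 12 against day 10), 0.14 (day 14 against day 12) and 0.20 (day 14 against day 10). The gap between the probe sets of a pair is wider than this deviation, which covers technical spread only. The members, target-cell groups, lists and naming rules (full values at 2-fold, all receptors, and the 4 largest differences on day 14 against day 10 per context list) were chosen with earlier results of these data known. Some context genes outside these rules are also named, to show other directions or sizes. Counting was checked on simulated data. Alternatives were other level filters, centring, quantile normalization, cyclic loess (limma 3.58.1), the brightest probe set and a 1.5-fold threshold. Analyses used Python 3.11.15 and pandas 2.3.3.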

Additional observations from a re-analysis of the deposited data

How the results depend on the processing

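The single pools and the missing replicates limit every value, and a probe set near the bottom of its range cannot show a lower level. The 9 genes that reached 2-fold gave 18 such differences over the 3 pairs of days, tried 116 times under the alternatives in which the gene passed the filter. Of these, 115 kept 2-fold, and Cxcl5 gave the exception at −0.998 with centred arrays, day 14 minus day 12. The level filters leave a gene's values as they are, and the 9 genes had 1 probe set each. Only centring, quantile normalization and cyclic loess could therefore change a difference, and the other tries kept 2-fold by construction. With no level filter the median over the genes was 0.0912 for day 12 minus day 10, 0.00 for day 14 minus day 12 and 0.00242 for day 14 minus day 10, the last with the sign turned. With the filter set at the 95th percentile of 1027 olfactory receptor genes (6.53), these medians were 0.15, −0.0214 and 0.0199, the last again turned. These filters let in 58 and 50 genes in place of 30. With the mean in the top 25%, which kept 14 genes, the median for day 12 minus day 10 was 0.32, with 4 genes at least 2-fold higher and 0 lower. On day 14, 2 were then at least 2-fold below day 12, and 1 below day 10. Quantile normalization gave a median of −0.37 for day 14 minus day 12. At 1.5-fold, 4 genes were higher and 7 lower on day 14 than on day 10, against 5.27% and 5.19% of genes. No paired analysis was possible because each day had 1 array.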

Other observations

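Outside the chemokines, 7 genes exceeded both other days by 2-fold or more on day 12 and were chosen after their values were seen. Among them were genes of activated myeloid cells. Nos2, which encodes inducible nitric oxide synthase, stood at 7.90, 9.35 and 7.49 on days 10, 12 and 14, and Acod1, which encodes the itaconate-making enzyme of activated macrophages, at 9.49, 10.61 and 9.18. Slfn4, a gene of myeloid cells that interferon induces, stood at 9.28, 10.28 and 8.51. The stromelysin gene Mmp3 stood at 9.79, 11.004 and 9.98, and Scd3, a fatty acid desaturase gene of the sebaceous gland, at 7.36, 8.67 and 7.66. The others were the Y-linked genes Eif2s3y and Uty, with Uty at 5.49, 9.001 and 7.84.

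Of the 7 probe sets that carry several symbols with a chemokine symbol among them, 3 share 1 set of symbols and 4 another. The 3 were 3.91-fold, 3.91-fold and 2.93-fold higher on day 12 than on day 10 and stayed 2.93-fold to 3.69-fold above day 10 on day 14. The 4 held identical values, 11.50, 11.77 and 11.34 on days 10, 12 and 14. Their genes cannot be told apart on this platform.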
